A study of Homo sapiens with 14 samples.

Results

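The mean transcriptome of K562 cells with TASOR knocked down was compared directly with that of K562 cells with TASOR2 knocked down. Every gene whose mean log2 value was above 0 in either knockdown was taken, which gave 16045 of the 35718 genes in the deposited table. K562 is an established human leukaemia line with erythroid features. In all groups the cells carried dCas9-KRAB, a dead Cas9 fused to a repressor domain that silences the promoter its guide RNA points to (CRISPR interference, CRISPRi). The labels list 2 TASOR libraries (guides sg1-TASOR and sg2-TASOR) and 3 TASOR2 libraries (sg1-TASOR2, sg2-TASOR2 and sg3-TASOR2). They also list 2 libraries each for MPP8 and PPHLN1 guides, 3 for the control guide sgAAVS1, which points to a safe-harbour locus, and 2 for untransduced dCas9 cells. RNA of the transduced cells was harvested on day 7 after transduction. The table holds 1 mean per group and no value per library, so the spread between guides or replicates is not known and no test over libraries could be made.

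TASOR is the scaffold of the HUSH (human silencing hub) complex, in which it joins MPP8, a reader of histone H3 lysine 9 trimethylation, and periphilin (PPHLN1), an RNA-binding protein. HUSH represses retroelements and other long transcription units that lack introns, with the methyltransferase SETDB1 and the ATPase MORC2. TASOR2 is a paralogue of TASOR that takes its place beside MPP8 and periphilin in a second complex, HUSH2, which has been linked to genes induced by interferon. MPP8 and periphilin are thus shared, and the direct comparison asks which transcripts differ according to whether the HUSH or the HUSH2 scaffold is depleted.

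Values below are the authors' group means of log2 reads scaled to a common depth, and a difference is the TASOR mean minus the TASOR2 mean. The ± after a difference is the half-width of its 95% Poisson interval, which covers counting error only. The depth per library read back from the table's steps was 6945067 reads in the TASOR mean and 5857937 in the TASOR2 mean, within a range of 5857937 to 7406968 over the 6 groups. The steps show that 2 libraries entered the TASOR2 mean, against 3 in the labels, and which of the guides entered is not given. A gene was called different when the means differed by at least 1 on the log2 scale, the higher mean was above 0 and the interval did not include 0. All 10 K562 markers, among them GATA1, KLF1 and the fetal globin HBG2, had means above 0 in both knockdowns, with a log2 summed level of 10.61 with TASOR and 10.66 with TASOR2 guides. Of 21 lymphoid markers 7 and 6 were above 0 with TASOR and TASOR2 guides, of 34 non-blood markers 8 and 8, and of 26 myeloid genes 14 and 14.

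The targeted genes matched their labels. TASOR, listed as FAM208A (hg38 chr3:56620133-56683237), had a mean of 3.29 with TASOR guides and 7.69 with TASOR2 guides. In the other groups it stood at 7.35 in untransduced cells, 7.22 with sgAAVS1, 7.34 with MPP8 and 7.39 with PPHLN1 guides. The difference of -4.40 ± 0.25 corresponds to 21.2-fold less TASOR transcript in the TASOR knockdown. TASOR2, listed as FAM208B (chr10:5684838-5763740), had a mean of 7.68 with TASOR guides and 6.03 with TASOR2 guides, against 7.69 in untransduced cells, 7.45 with sgAAVS1, 7.86 with MPP8 and 8.18 with PPHLN1 guides. Its difference was 1.65 ± 0.12, or 3.14-fold, so the residual transcript of the target was larger in the TASOR2 knockdown than in the TASOR knockdown. The shared subunits were nearly level between the knockdowns, with a difference of 0.10 ± 0.11 for MPHOSPH8 (the gene of MPP8) and -0.01 ± 0.11 for PPHLN1. The partner genes were not called either: MORC2 differed by 0.01 ± 0.09, TRIM28 by -0.01 ± 0.06, SETDB1 by 0.23 ± 0.08 and ATF7IP, which protects SETDB1, by -0.31 ± 0.08.

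In all, 860 genes were higher with TASOR guides, 5.36% of those compared, and 228 were higher with TASOR2 guides, 1.42%. The other 14957 genes were not called, and the median difference over all genes was 0.09. The excess on the TASOR side depended on scaling: it was 703 (4.38%) against 274 (1.71%) after centring the difference on its median, and turned to 390 (2.43%) against 449 (2.8%) after quantile normalization of the means. All 390 of these, and 228 of the 449, were among the calls above. Most called genes were weakly expressed. Of 7318 genes whose higher mean was above 6, only 13 were higher with TASOR guides and 5 with TASOR2 guides, whereas of 1323 genes with a higher mean of 0 to 1, 17.1% and 6.5% were called. On data simulated with 2 libraries a group and counting error alone, the rule called 4.23% of 2505 unchanged genes with a higher mean up to 2 and 0 of 13110 unchanged genes above it.

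**Figure D1:**
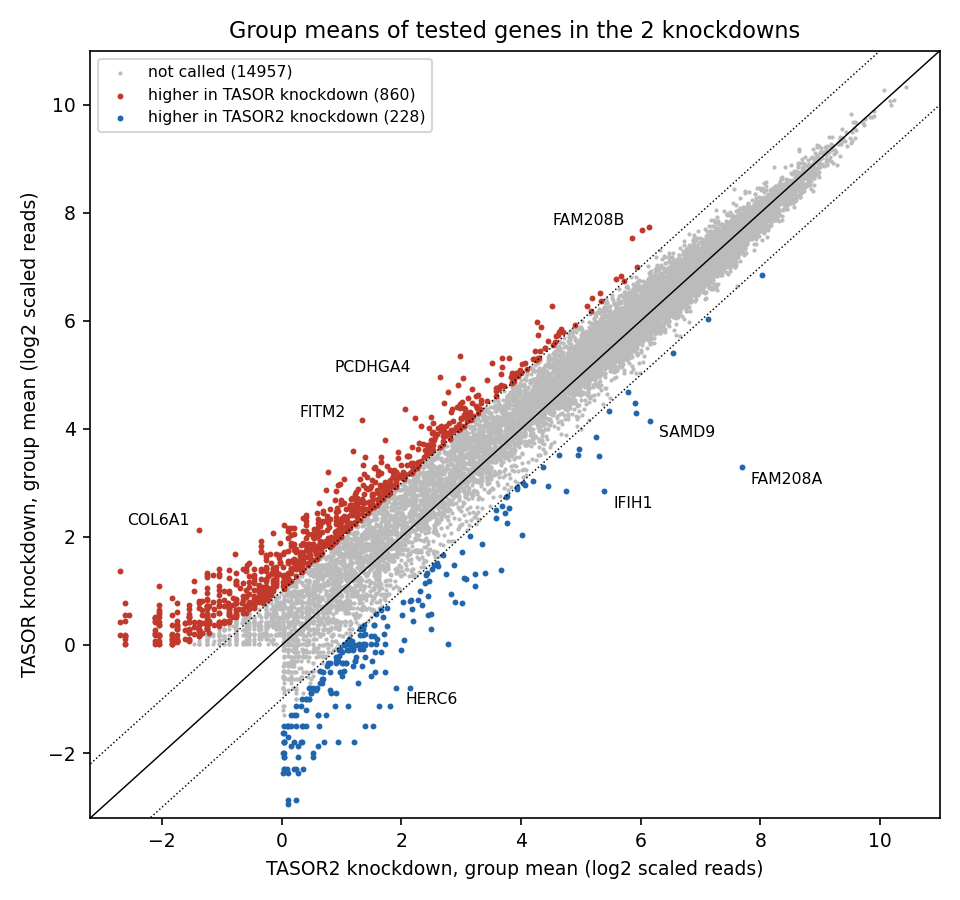
Mean log2 scaled reads of each of the 16045 genes with TASOR2 guides (horizontal) and TASOR guides (vertical). Each point is 1 gene, the solid line marks equal means and the dotted lines a difference of 1; 860 genes called higher with TASOR guides are red, 228 called higher with TASOR2 guides are blue, and 14957 genes not called are grey, with FAM208A farthest below the line among genes of high mean.

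The gamma protocadherins formed the most uniform group on the TASOR side. Protocadherins are cell adhesion molecules, best known from neurons, that are encoded in 3 adjacent clusters (alpha, beta and gamma), each gene having its own promoter and, in the gamma cluster, shared last exons. Of 53 clustered protocadherins deposited, 22 passed the filter on the means, all of them gamma genes. Of those, 21 were called higher with TASOR guides and 0 with TASOR2 guides. These shares were 95.5% and 0%, against 5.36% and 1.42% of all genes. The median difference of the 22 was 1.55, against 0.09 over all genes. The median higher mean of the 22 was 2.04. Of all genes with a higher mean of 1 to 2, 18.3% and 5.68% were called, with a median difference of 0.35. At 2 to 4 these values were 12.3%, 2.14% and 0.34. PCDHGA11 was not called, with a difference of 0.77 ± 0.85. Since the filter kept a gene that was high in only 1 knockdown, the count over these 22 is a description. Because these genes overlap on chr5 and share exons, reads could be assigned to more than 1 of them, and the 21 calls are not independent.

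PCDHGA4 (chr5:141355025-141512979) had a mean of 4.95 with TASOR guides and 2.64 with TASOR2 guides, with 3.53 in untransduced cells, 3.15 with sgAAVS1, 4.83 with MPP8 and 5.19 with PPHLN1 guides. It was therefore high in the TASOR, MPP8 and PPHLN1 knockdowns and lower in both controls and in the TASOR2 knockdown, and its difference was 2.31 ± 0.36 (4.97-fold). PCDHGA5 had the same order, at 4.38 with TASOR, 4.32 with MPP8 and 4.46 with PPHLN1 guides against 2.89 in untransduced cells, 2.34 with sgAAVS1 and 2.06 with TASOR2 guides, a difference of 2.31 ± 0.44. PCDHGB2 stood at 4.69 with TASOR guides and 2.77 with TASOR2 guides, which lay within the 2.70 to 3.28 of the controls, and PCDHGB3 at 4.20 and 2.23, below the 2.72 to 2.86 of the controls. PCDHGA6 differed by 1.77 ± 0.36, PCDHGA1 by 1.86 ± 0.75 and PCDHGA7 by 1.61 ± 0.58. The smallest differences called were those of PCDHGA9 at 1.02 ± 0.75 and PCDHGC3 at 1.11 ± 1.03, and both lost their call after centring. Both control means were nearer the TASOR2 mean for 18 of the 21 genes, and the MPP8 and PPHLN1 means were both nearer the TASOR mean for 19. Both control means were nearer the TASOR2 mean for 17.9% of the 860 genes on the TASOR side and 31.3% of all genes. MPP8 and PPHLN1 means both nearer the TASOR mean were common in general. Genes with that order and controls nearer TASOR, nearer TASOR2 or split made up 46.6%, 10.3% and 17.0% of the 860. Over all genes these shares were 31.7%, 15.1% and 13.0%. Over the 21 the median was 2.10 with TASOR, 1.68 with MPP8 and 2.01 with PPHLN1 guides, against 1.06 in untransduced cells, 0.40 with sgAAVS1 and 0.58 with TASOR2 guides. Because the 21 were called on the difference between the TASOR and TASOR2 means, the gap between those 2 medians was fixed by the choice.

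The promoters of these genes are known to share a conserved element around a CGCT core that the insulator protein CTCF binds. Windows of 80 bases at the start of the 4 protocadherins below are shown as examples of the 10 called genes that carry the motif searched here. Those of PCDHGA4 and PCDHGA7 lie before the start, and those of PCDHGA5 and PCDHGA6 begin 74 and 75 bases before it and run past it. The windows come from RefSeq (GRCh38.p14), with the match to the motif searched, CGCTGTT followed by 2 bases of any kind and CC, in capitals, all on the plus strand of chr5.
PCDHGA4, chr5:141354941-141355020: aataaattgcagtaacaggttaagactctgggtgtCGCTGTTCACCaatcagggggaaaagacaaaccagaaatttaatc
PCDHGA5, chr5:141364088-141364167: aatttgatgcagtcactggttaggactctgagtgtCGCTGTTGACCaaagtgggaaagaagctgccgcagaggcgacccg
PCDHGA6, chr5:141373816-141373895: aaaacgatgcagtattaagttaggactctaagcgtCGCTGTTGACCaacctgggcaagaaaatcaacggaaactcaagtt
PCDHGA7, chr5:141382630-141382709: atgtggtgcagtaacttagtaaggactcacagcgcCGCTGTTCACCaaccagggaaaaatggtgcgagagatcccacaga
The match was sought on either strand within 250 bases before to 50 after the start, and a gene counted if any of its promoters matched. It was present in 10 of the 19 called protocadherins that have a promoter entry. Of the 10186 compared genes with an entry 0.579% had it, and of 35116 single promoters 0.299%. The letters were chosen after these promoters had been read, so the shares are a description.

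**Figure D2:**
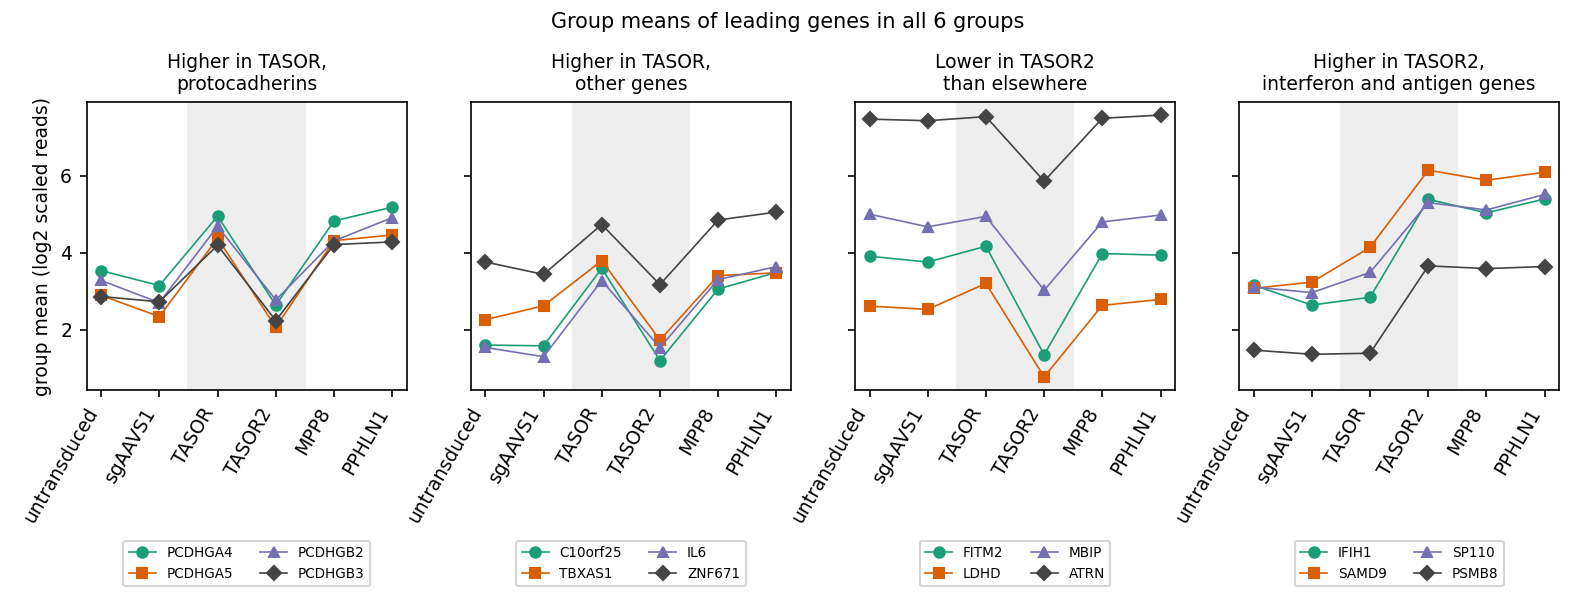
Group mean (log2 scaled reads, vertical) of 16 genes in the 6 groups (horizontal), 4 genes a panel; lines join the means of 1 gene and the grey band holds the TASOR and TASOR2 knockdowns. PCDHGA4 and the genes of the 2 left panels are high in TASOR, MPP8 and PPHLN1 knockdowns, FITM2 and its panel are low in TASOR2 alone, and IFIH1 and its panel are high in TASOR2, MPP8 and PPHLN1 knockdowns.

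Other genes followed the protocadherin layout, in which the TASOR mean stood apart from both controls and the MPP8 and PPHLN1 means lay on its side. Together with 16 of the protocadherins such genes numbered 89 of the 860 (10.3%), a smaller share than the 15.1% of all genes compared that had this order of means. The genes below are given for their values. C10orf25, an antisense transcript on chr10, stood at 3.59 with TASOR guides, 3.06 with MPP8 and 3.49 with PPHLN1 guides, against 1.60 in untransduced cells, 1.58 with sgAAVS1 and 1.20 with TASOR2 guides, a difference of 2.40 ± 0.59. TBXAS1, the thromboxane synthase gene, stood at 3.79 with TASOR and 1.73 with TASOR2 guides, with 2.26 and 2.62 in the controls and 3.41 and 3.48 with MPP8 and PPHLN1 guides, a difference of 2.06 ± 0.50. The cytokine gene IL6 stood at 3.28 with TASOR guides and 1.53 with TASOR2 guides, the latter close to 1.54 in untransduced cells and 1.30 with sgAAVS1, while MPP8 and PPHLN1 guides gave 3.30 and 3.64. The difference for IL6 was 1.74 ± 0.54. The antisense transcript AC002480.3, which lies at a lower coordinate than IL6 on chr7, differed by 1.70 ± 0.27. RP11-567N4.3, a noncoding gene on chr4, had a mean of 1.37 with TASOR guides and no reads in the TASOR2 mean, and was at least 10.1-fold higher with TASOR guides against a floor of 3 reads over the group. MAP10, a gene with a single exon that encodes a microtubule-associated protein, differed by 1.72 ± 0.41 and COL28A1, a collagen gene, by 2.09 ± 0.56.

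On the TASOR side the larger set was that in which the TASOR2 mean stood apart. Both control means were nearer the TASOR mean for 467 of the 860 genes, and for 401 of these the MPP8 and PPHLN1 means were nearer the TASOR mean too. TASOR stood apart for 154, and for 239 the controls were split. Over all 16045 genes TASOR2 stood apart for 45.9%, TASOR for 31.3% and the controls were split for 22.8%. Taking sgAAVS1 alone as the control put 311 genes with TASOR apart, and untransduced cells alone put 236.

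FITM2, which encodes a membrane protein needed to form lipid droplets, had the interval farthest from 0 among these genes. It stood at 4.17 with TASOR guides and 1.35 with TASOR2 guides, and between 3.76 and 3.98 in the other 4 groups, a difference of 2.82 ± 0.55 (7.07-fold). COL6A1, a chain of collagen VI, had a mean of -1.39 with TASOR2 guides against 2.13 with TASOR guides and 1.42 to 2.31 elsewhere, a difference of 3.52 ± 1.39. JHDM1D-AS1, a transcript from a bidirectional promoter on chr7, stood at 2.98 with TASOR2 guides against 4.83 to 5.40 in the other groups. LDHD, the D-lactate dehydrogenase gene, differed by 2.43 ± 0.68, MBIP by 1.92 ± 0.32 and DYRK2, a protein kinase gene, by 1.75 ± 0.19. ATRN, the attractin gene, stood at 5.86 with TASOR2 guides and between 7.43 and 7.58 in the other groups, a difference of 1.68 ± 0.12. TERT, which encodes the telomerase catalytic subunit, stood at 1.35 with TASOR2 guides and 2.51 to 3.33 elsewhere, and NPRL3, an upstream regulator of the kinase mTORC1, at 6.13 against 7.51 to 7.77. SLC4A7, a bicarbonate transporter gene, JAK3, a cytokine receptor kinase gene, and CHRD, the chordin gene, differed by 1.62 ± 0.26, 2.19 ± 0.89 and 2.04 ± 0.63. GP6, the platelet collagen receptor gene, differed by 1.88 ± 0.33 but is not in this set: its controls were split, and its means ranged from 3.39 with PPHLN1 guides to 4.26 with MPP8 guides outside the 2 knockdowns compared.

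On the TASOR2 side 5 of the 14 leading genes belong to the interferon response, in which infected cells switch on antiviral proteins. Of 87 interferon-stimulated genes deposited, 74 passed the filter on the means, and 14 of those were called higher with TASOR2 guides and 0 with TASOR guides. These shares were 18.9% and 0%, against 1.42% and 5.36% of all genes. The median difference of the 74 was -0.25, or -0.34 relative to all genes, and 60 members were not called. The 14 were IFIH1, SAMD9, HERC6, DDX60L, SP110, SAMD9L, IFI6, USP18, IFIT2, XAF1, TRIM22, IFI16, IFIT1 and MX2. Of these, HERC6, IFIT2, XAF1 and IFIT1 had TASOR means below 0 and passed the filter only through the TASOR2 mean. The count over the 74 is thus a description. After quantile normalization 20 were called, and after removing the trend with GC content described below 18 were called. The transcription factor genes IRF9 and IRF7 were not called, with differences of 0.13 ± 0.12 and 0.01 ± 0.25. The other members with the highest means were not called either, with -0.38 ± 0.06 for ZC3HAV1, -0.17 ± 0.05 for ADAR and -0.10 ± 0.06 for TRIM25. MX1 differed by -1.13 ± 1.28 and was called only after quantile normalization or removal of the GC trend.

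IFIH1 (chr2:162267079-162318703) encodes MDA5, a sensor of double-stranded RNA. It stood at 5.39 with TASOR2 guides, 5.04 with MPP8 and 5.40 with PPHLN1 guides, against 2.84 with TASOR guides, 3.16 in untransduced cells and 2.64 with sgAAVS1. The TASOR mean thus lay between the 2 controls, and the difference was -2.55 ± 0.31 (5.84-fold). Its neighbour GCA, which starts beside it on the other strand, stood at 0.61 with TASOR2 guides and -1.87 with TASOR guides, with -1.89 and -1.63 in the controls, a difference of -2.48 ± 1.60. SAMD9 (chr7:93099513-93118023), an antiviral restriction factor gene, stood at 6.15 with TASOR2, 5.89 with MPP8 and 6.09 with PPHLN1 guides, against 4.14 with TASOR guides, 3.08 in untransduced cells and 3.24 with sgAAVS1. Here the TASOR mean lay above both controls, and the difference was -2.01 ± 0.21. Its adjacent paralogue SAMD9L differed by -1.87 ± 0.57, with 1.22 with TASOR guides against 0.69 and 0.78 in the controls. DDX60L, an RNA helicase gene, stood at 4.76 with TASOR2 and 2.86 with TASOR guides, the latter beside 2.83 and 2.73 in the controls. SP110, a nuclear body gene, stood at 5.30 and 3.49, beside 3.11 and 2.96.

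The remaining called interferon genes were as follows. HERC6, a ubiquitin ligase gene, differed by -2.71 ± 1.09, USP18, which removes ISG15, by -1.74 ± 0.76, IFI6 by -1.5 ± 0.33 and IFIT2, which binds viral RNA, by -1.73 ± 1.01. IFIT1 differed by -1.33 ± 1.15, TRIM22 by -1.32 ± 0.69, IFI16, a DNA sensor gene, by -1.29 ± 0.61 and MX2 by -1.0 ± 0.78. XAF1 had no reads in the TASOR mean and was at least 5.0-fold higher with TASOR2 guides against the floor. For 11 of the 14 both controls were nearer the TASOR mean, for 11 the MPP8 and PPHLN1 means were both nearer the TASOR2 mean, and for 9 both held. Both controls were nearer the TASOR mean for 63.6% of the 228 genes on the TASOR2 side and 45.9% of all genes. Both conditions held for 13.6% and 6.3%. Over the 14 the median was 2.33 with TASOR2, 1.87 with MPP8 and 1.90 with PPHLN1 guides, against 1.01 with TASOR guides, 1.32 in untransduced cells and 0.87 with sgAAVS1. Because the 14 were called on the difference between the TASOR2 and TASOR means, the gap between those 2 medians was fixed by the choice. Over all 74 members compared the median was 5.67 with TASOR2, 5.79 with MPP8 and 5.91 with PPHLN1 guides. It was 5.34 with TASOR guides, 5.18 in untransduced cells and 5.02 with sgAAVS1.

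Interferon-induced promoters carry the interferon-stimulated response element, read by IRF proteins. Windows of 80 bases are shown for 4 of the called genes, from RefSeq (GRCh38.p14), 5′ to 3′ along the gene, with matches to the motif searched, a pair of GAAA repeats with 2 bases of any kind between them, or to its reverse complement, in capitals.
IFIH1, chr2:162318796-162318875, minus strand: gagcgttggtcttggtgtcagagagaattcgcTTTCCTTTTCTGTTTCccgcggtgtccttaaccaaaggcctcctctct
SAMD9, chr7:93118071-93118150, minus strand: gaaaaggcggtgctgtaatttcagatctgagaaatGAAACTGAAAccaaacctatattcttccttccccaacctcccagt
DDX60L, chr4:168480513-168480592, minus strand: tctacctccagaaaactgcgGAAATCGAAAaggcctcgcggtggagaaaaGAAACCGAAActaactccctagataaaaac
IFIT1, chr10:89392478-89392557, plus strand: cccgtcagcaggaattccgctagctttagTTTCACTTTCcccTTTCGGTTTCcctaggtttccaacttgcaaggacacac
The IFIH1 window holds 2 overlapping matches, and the start of GCA lies in it on the other strand. A match was again sought within 250 bases before to 50 after the start, in any promoter of a gene. It was present in 5 of 10 called interferon-stimulated genes with a promoter entry and in 25 of 42 that were not called. Of the 10186 compared genes with an entry 3.87% had it, and of 35116 single promoters 3.57%. The match did not separate the called from the other interferon-stimulated genes.

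Genes of antigen presentation and a set of zinc finger genes had the same layout as IFIH1. Of 19 antigen presentation genes 3 were called higher with TASOR2 guides and 0 with TASOR guides. These shares were 15.8% and 0%, against 1.42% and 5.36% of all genes. The 3 were PSMB8 and PSMB9, which encode catalytic subunits of the immunoproteasome, and TAP1, which encodes a peptide transporter. After quantile normalization 6 were called, and after removal of the GC trend 5. PSMB8, PSMB9 and TAP1 are neighbours in the major histocompatibility region, chr6:32840717-32859585. PSMB8 stood at 3.66 with TASOR2, 3.59 with MPP8 and 3.64 with PPHLN1 guides, against 1.39 with TASOR guides, 1.47 in untransduced cells and 1.36 with sgAAVS1, a difference of -2.27 ± 0.52. PSMB9 differed by -1.92 ± 0.55 and TAP1 by -1.10 ± 0.19, again with the TASOR means, 1.32 and 4.68, at the level of the controls, 1.32 to 1.59 and 4.51 to 4.71. GIMAP2, an immune GTPase gene and the only member of its family that passed the filter, stood at 3.35 with TASOR2 and 1.87 with TASOR guides, with 1.85 and 1.38 in the controls.

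Zinc finger genes of the ZNF series encode mostly KRAB repressors of retroelements and lie in large part in clusters on chr19. Of 456 compared, 9 were called higher with TASOR guides and 12 with TASOR2 guides, that is 1.97% and 2.63% against 5.36% and 1.42% over all genes, with a median difference of -0.03. The balance moved with scaling, to 7 against 16 after centring and 4 against 25 after quantile normalization. The median GC content of the list was 43.1%, against 48.9% over all genes. With the GC trend removed the counts were 7 against 11. The list's median relative to all genes then moved from -0.12 to -0.01. All 12 on the TASOR2 side had both controls nearer the TASOR mean, and 11 had the MPP8 and PPHLN1 means nearer the TASOR2 mean. Both controls were nearer the TASOR mean for 63.6% of the 228 genes on that side and 45.9% of all genes. Both conditions held for 13.6% and 6.3%. ZNF850 (chr19:36714383-36772825) stood at 8.02 with TASOR2, 7.69 with MPP8 and 7.94 with PPHLN1 guides, against 6.85 with TASOR guides, 6.86 in untransduced cells and 6.66 with sgAAVS1, a difference of -1.17 ± 0.09. ZNF136 differed by -1.43 ± 0.19, ZNF200 by -1.14 ± 0.14, ZNF528 by -1.14 ± 0.21 and ZNF605 by -1.17 ± 0.33. ZNF829 and the adjacent ZNF568 differed by -2.89 ± 1.38 and -1.47 ± 0.98. By place, the 31 zinc finger genes at 30 to 40 Mb of chr19 had 0 called on the TASOR side, 4 on the TASOR2 side and a median of -0.55, and the 28 at 40 to 50 Mb had 0, 2 and -0.46. The 90 at 50 to 60 Mb had 4, 2 and a median of -0.04. These counts and medians by place are without removal of the GC trend.

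The zinc finger genes on the TASOR side included genes with the protocadherin layout. ZNF671 stood at 4.74 with TASOR, 4.85 with MPP8 and 5.06 with PPHLN1 guides, against 3.76 in untransduced cells, 3.44 with sgAAVS1 and 3.17 with TASOR2 guides, a difference of 1.56 ± 0.31. ZNF594 differed by 1.51 ± 0.25 and ZNF69 by 1.47 ± 0.26, with TASOR2 means of 3.80 and 3.68 against control means of 3.94 to 4.21 and 3.74 to 3.91. In 4 of the 9 genes both controls were nearer the TASOR2 mean with MPP8 and PPHLN1 nearer the TASOR mean, and in 3 TASOR2 stood apart with all other groups near TASOR. These layouts made up 10.3% and 46.6% of the 860 genes on the TASOR side, and 15.1% and 31.7% of all genes. ZNF497, ZNF837 and ZNF853 lost their call after the GC trend was removed.

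**Figure D3:**
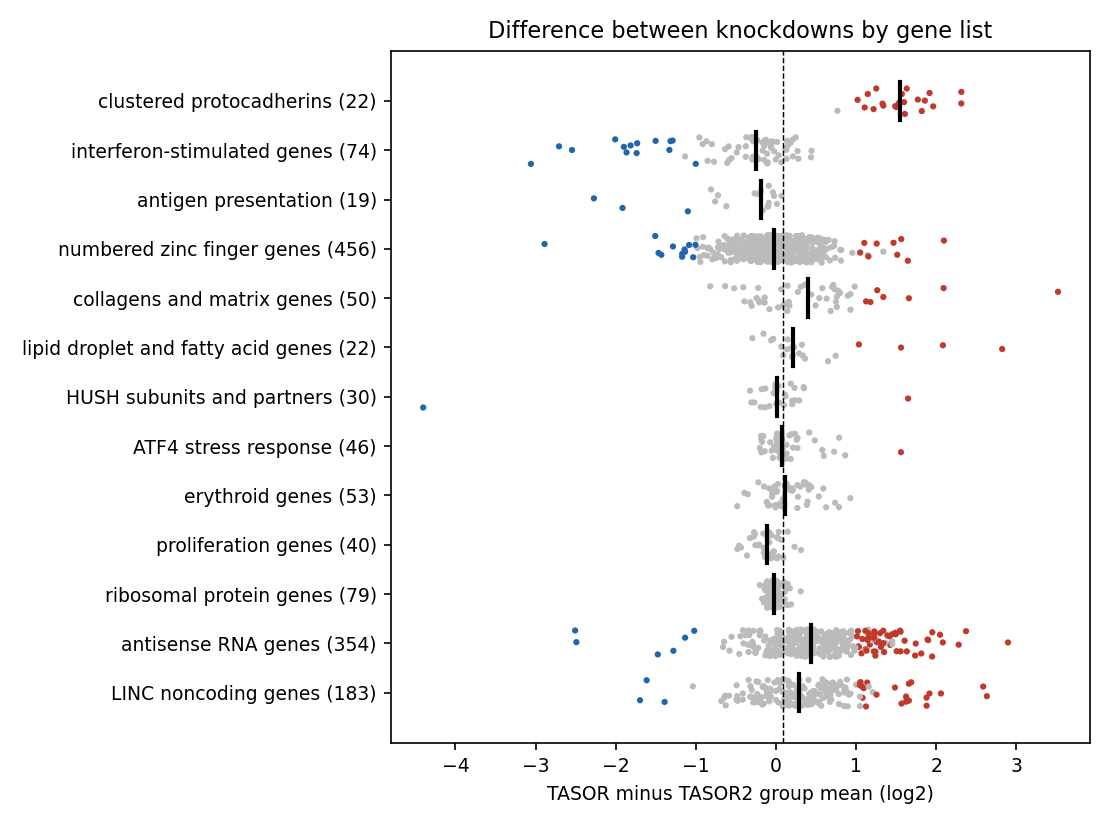
TASOR minus TASOR2 group mean (log2, horizontal) of each gene compared in 13 gene lists (vertical, number of genes in brackets). Points are genes, red where called higher with TASOR guides, blue where called higher with TASOR2 guides and grey otherwise; black bars are list medians and the dashed line is the median of all genes, 0.09. The protocadherins lie to the right with a median of 1.55, and the interferon-stimulated genes hold 14 blue points and 0 red ones.

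On the TASOR2 side both controls were nearer the TASOR mean, so that TASOR2 stood apart, for 145 of the 228 genes, TASOR stood apart for 27 and the controls were split for 56. With untransduced cells as the only control, TASOR stood apart for 72. The 145 hold different layouts. In 31 (13.6%, against 6.3% of all genes) the MPP8 and PPHLN1 means were both nearer the TASOR2 mean, and these include 11 zinc finger genes, 9 interferon-stimulated genes, the 3 antigen presentation genes and GIMAP2. The median higher mean of the 31 was 3.35. In 90 (39.5%, against 31.7% of all genes) the MPP8 and PPHLN1 means were both nearer the TASOR mean, so that TASOR2 stood apart from every other group, and their median higher mean was 1.45. These include FAM71F2, at 1.53 with TASOR2 guides and -1.30 or lower elsewhere, and the neighbouring noncoding RP11-274B21.10, at 2.15 against -0.58 or lower. HECW2, a ubiquitin ligase gene, stood at 5.92 with TASOR2 guides and 4.18 to 4.83 elsewhere, a difference of -1.62 ± 0.20. GLIPR1 stood at 3.23 against 1.10 to 1.81, and the antisense transcript RP4-657D16.3 at 2.77 against 0.96 or lower.

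Of the 27 genes with TASOR apart, 9 also had the MPP8 and PPHLN1 means nearer the TASOR2 mean. Beside FAM208A itself, TTI1, which encodes a cofactor of PI3-kinase-like kinases, stood at 6.03 with TASOR guides and 6.93 to 7.17 in the other 5 groups, a difference of -1.10 ± 0.12. SMPD3, a sphingomyelinase gene, stood at 2.75 with TASOR guides and 3.76 to 4.61 elsewhere, a difference of -1.01 ± 0.37. For MS4A2, DCT and SNORD3C, which were among the 14 leading genes of the TASOR2 side, the controls were split. MS4A2 stood at 3.20 in untransduced cells and 2.73 with sgAAVS1, between 2.04 with TASOR and 4.01 with TASOR2 guides.

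**Figure D4:**
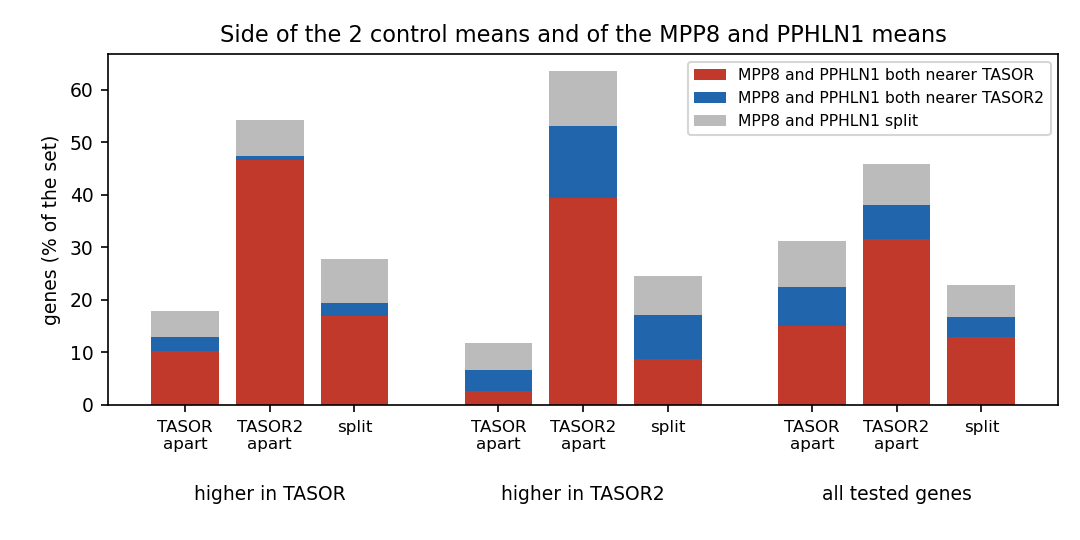
Share of genes (%, vertical) by which knockdown stands apart from the 2 control means, for the 860 genes higher with TASOR guides, the 228 higher with TASOR2 guides and all 16045 genes. Bars are split by the side of the MPP8 and PPHLN1 means; the red bar for TASOR2 apart is the largest in each set, at 46.6% on the TASOR side, and the blue share for TASOR2 apart is 13.6% on the TASOR2 side and 0.698% on the TASOR side.

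Other lists were mostly level between the knockdowns. Counts were 0 in both directions for 23 heat shock and unfolded protein genes, 17 p53 targets, 25 cholesterol synthesis genes, 31 glycolysis and hypoxia genes, 40 proliferation genes, 25 MYC and ribosome biogenesis genes, 53 erythroid genes, 13 mitochondrially encoded genes and 79 ribosomal protein genes. Those genes had high means, where the rule called few genes of any kind. Of 46 genes of the ATF4 stress response, CHAC1, which degrades glutathione, was the only one called: it stood at 4.33 with TASOR2 guides and 5.71 to 6.04 elsewhere, a difference of 1.56 ± 0.21. Of 22 lipid droplet and fatty acid genes 4 were higher with TASOR guides and 0 with TASOR2 guides. These shares were 18.2% and 0%, against 5.36% and 1.42% of all genes. Beside FITM2 the 4 were PCK1 (2.08 ± 1.02), PLIN4 (1.56 ± 1.49) and DGAT2 (1.03 ± 0.47), of which PLIN4 and DGAT2 lost their call after centring. The list's median relative to all genes was 0.13. With the GC trend removed it was 0.01, and 2 genes were called higher with TASOR guides.

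Of 50 collagen and matrix genes 7 were higher with TASOR guides (14%) and 0 with TASOR2 guides, with a median difference of 0.40. Of all genes with a higher mean of 2 to 4, near the list's median of 3.54, 12.3% and 2.14% were called, with a median of 0.34, and after quantile normalization the list's counts were 3 and 1. COL6A1 and COL28A1 are given above, and COL25A1 differed by 1.34 ± 0.68, with 2.33 with TASOR guides and 0.79 to 1.71 elsewhere, a call lost after quantile normalization. Of 23 inflammatory genes 2 were called in each direction (8.70%), against 5.36% of all genes on the TASOR side and 1.42% on the TASOR2 side. The list's median higher mean was 4.03. Of all genes at 2 to 4, 12.3% and 2.14% were called, and of those at 4 to 6, 2.85% and 0.44%. IL6 and BDKRB1 (1.97 ± 1.12), a bradykinin receptor gene, were higher with TASOR guides, and CXCL8 (-1.03 ± 0.34) and IL32 (-1.61 ± 1.36) were higher with TASOR2 guides. CXCL8 stood at 2.30 in untransduced cells and 4.20 with sgAAVS1, so its controls spanned both knockdowns, at 2.99 and 4.03, and its call was lost when the GC trend was removed. Of 53 germline and cancer-testis genes 4 (7.55%, against 5.36% of all genes) were higher with TASOR guides. That share is below the 12.3% of all genes with a higher mean of 2 to 4, near the list's median of 3.17. The 4 included the piRNA pathway genes TDRD5 (1.79 ± 0.57) and MOV10L1 (1.40 ± 0.89). Only 1 gene, SSX5 (-1.84 ± 1.47), was higher with TASOR2 guides, and the balance was 2 against 3 after quantile normalization. Of 354 antisense RNA genes 50 were higher with TASOR guides (14.1%) and 6 with TASOR2 guides (1.69%), with a median difference of 0.43, and of 183 LINC genes 21 (11.5%) and 3 (1.64%), with a median of 0.29. These shares lie near those of all genes at that level, given for the matrix genes, and after quantile normalization the counts were 24 and 9 for antisense RNA and 10 and 4 for LINC genes.

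The called genes differed from the rest in transcript composition and structure. The median GC content of the longest transcript was 55.2% in genes higher with TASOR guides and 41.9% in genes higher with TASOR2 guides, against 48.9% over all genes compared. Genes with a single exon made up 16.0% and 30.2% of the called genes against 9.83% of all, and protein-coding genes 60.3% and 54.9% against 82.4%. The median longest exon was 1324 bases on the TASOR side, 1989 on the TASOR2 side and 1734 over all. Expression level moved with these features, the median higher mean being 1.88 and 1.28 in the called genes against 5.76 over all.

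GC content moved with the difference over the whole table. Over 9372 genes with a mean above 5, Spearman's rho between GC content and the difference was 0.71; these points are genes of the same libraries and not independent replicates. From the lowest to the highest of 10 GC bins the median difference went from -0.23 to 0.37. Against untransduced cells the TASOR2 median went from 0.21 to -0.14, against sgAAVS1 from 0.34 to -0.16 and against the MPP8 knockdown from 0.25 to -0.37. The TASOR median went from -0.02 to 0.23 against untransduced cells and from 0.12 to 0.20 against sgAAVS1, but was 0.03 in the lowest and 0.01 in the highest bin against the MPP8 knockdown. The share called higher with TASOR guides went from 1.14% to 10.6% and the share called higher with TASOR2 guides from 3.67% to 0.190%. With a running median on GC content removed, 589 genes (3.73%) were higher with TASOR guides and 226 (1.43%) with TASOR2 guides out of 15802 with a GC value, of which 539 and 183 were also called without the removal. Among the protocadherins, whose median GC content was 55.2%, 18 were then called and the median was 1.37. The 74 interferon-stimulated genes compared had a median GC content of 49.2%, against 48.9% over all genes. Of the 14 called, USP18 (51.6%) and IFI6 (56.1%) lay above 48.9% and the others below. Those were SAMD9 (36.0%), SAMD9L (38.5%), IFI16 (38.6%), DDX60L (38.7%), TRIM22 (41.8%), IFIT1 (42.2%) and IFIT2 (42.8%). The rest were XAF1 (43.0%), IFIH1 (43.3%), SP110 (44.1%), HERC6 (46.3%) and MX2 (48.8%).

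**Figure D5:**
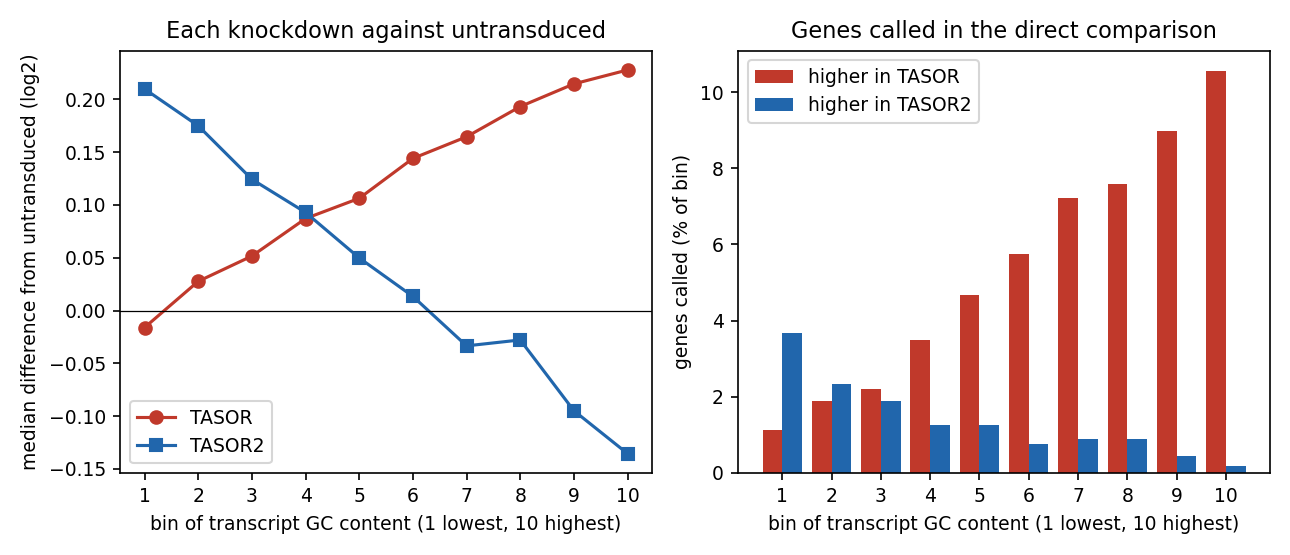
Left, median difference from untransduced cells (log2, vertical) for the TASOR and TASOR2 knockdowns in 10 bins of transcript GC content (horizontal, 1580 or 1581 genes each). Right, share of each bin's genes (%) called in the direct comparison; the median rises with GC to 0.23 for TASOR and falls to -0.14 for TASOR2, and the share higher with TASOR guides reaches 10.6% in bin 10.

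Level moved with the difference as well. By the mean of the 4 groups that are not compared, genes between 0 and 2 had a median of 0.16 above those groups with TASOR guides and -0.19 with TASOR2 guides, while genes above 6 had 0.05 and 0.03. The part of GC content and of level in the called differences was not tested. With 1 mean per group, a difference between libraries and a difference between knockdowns cannot be told apart.

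Called genes also lay next to each other. Runs of 2 or more neighbouring compared genes called in the same direction numbered 72 on the TASOR side and 14 on the TASOR2 side. How many such runs arise at overall shares of 5.36% and 1.42% was not tested. The longest held 18 genes, AC005618.6 and gamma protocadherins, and was followed after PCDHGA11 by a run of 4 gamma protocadherins. On the TASOR2 side the runs included PSMB8, PSMB9 and TAP1, then IFIH1 with GCA, SAMD9 with SAMD9L, ZNF829 with ZNF568, and RP11-274B21.10 with FAM71F2.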

How the data were processed

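The authors deposited 1 table of group means for 14 labelled libraries of ribosome-depleted total RNA. Per the file headers, 1 column holds the mean log2 value of untransduced cells; the deposited values of the other 5 groups are a score, the quotient of the group's mean log2 value and the untransduced mean, read from the values themselves. Multiplying them gave the group means. The submitters' processing notes name cutadapt, Bowtie2 and hg38; for the read counter, annotation and scaling no name is given in the sources used here. Genes without reads hold a value equal to 0.9 reads, and the low values fell on whole-read steps in 100% of cases within 0.001, which gave the libraries per mean and the depth. The design assumed no other unit, and 0 columns of values were left out. Of rows with the same symbol, the highest was kept (87 dropped).

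Differences, Poisson intervals and counts were computed in Python 3.11.15 (pandas 2.3.3, SciPy 1.17.1). The rule was tested on simulated data: 98.96% of 96 genes changed by 1.5 and 100% of 104 changed by 2 were recovered. The changed genes were drawn above a higher level than the filter on the means, with counting error alone. Recovery of weaker genes, or with spread between libraries, was not tested. GC content and exons came from GENCODE release 29 (98.5% of genes matched: 13008 by symbol, 4 by an older symbol, 2790 by position), promoters from RefSeq. Symbols and coordinates are those of the table, in hg38. The members and the 32 lists were chosen with earlier results of these data known. Named are the targets, the 14 genes per direction whose interval lay farthest from 0, up to 3 called members per list and direction, up to 3 members not called for the interferon, protocadherin and HUSH lists, and genes chosen after their values were seen, 144 in all.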

Additional observations from a re-analysis of the deposited data

How the results depend on the processing

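The 8 alternatives changed the counts of genes higher with TASOR and TASOR2 guides as follows. They were 390 and 449 after quantile normalization, 405 and 71 with either mean above 2, 339 and 105 with a difference of at least 1.5, 2076 and 441 with at least 0.58, and 645 and 146 with a 99% interval. Centring gave 703 and 274, no filter 908 and 259, and removal of the GC trend 589 and 226. With either mean above 2, interferon-stimulated genes higher with TASOR2 guides numbered 9 and protocadherins higher with TASOR guides 11. Without a filter both lists' medians relative to all genes were 0, all 3 medians being -0.25, the difference of a gene without reads in either mean. With 1 control alone, genes higher with TASOR guides that had TASOR apart numbered 311 (sgAAVS1) and 236 (untransduced), and genes higher with TASOR2 guides that had TASOR apart 72 (untransduced). Taking the calls after removal of the GC trend, a check chosen after seeing the data, gave 328 genes with TASOR2 apart on the TASOR side and 144 on the TASOR2 side. Of 144 named genes, 127 kept their side of the rule after removal of the GC trend, 133 after centring and 121 of those still compared after quantile normalization. The cause of these changes was not tested.

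No paired analysis was possible because the table holds 1 mean per group. Leave-one-out fits were not run, as the means hold no value per library or guide, and the intervals cover counting error only. Depth limits the genes with low means, where few reads set each value.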
